A study of Mus musculus with 18 samples.

Results

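The genes described here are 4 ligands of the fibroblast growth factor (FGF) family, *Fgf8*, *Fgf17*, *Fgf18* and *Fgf4*, and 6 genes that cells switch on when an FGF signal arrives, *Etv4*, *Etv5*, *Dusp6*, *Spry1*, *Spry2* and *Spry4*. They were taken by gene symbol from a table of 34245 genes measured in mouse embryos at E11.5, and all 10 symbols were found, once each. *Fgf8*, *Fgf17* and *Fgf18* form the *Fgf8* group of ligands, secreted proteins that bind tyrosine kinase receptors and signal through the ERK kinase cascade. *Fgf8* and *Fgf4* are made in the apical ectodermal ridge of the limb bud, *Fgf8*, *Fgf17* and *Fgf18* around the boundary of midbrain and hindbrain, and *Fgf8* also in the tail bud and the branchial arches. The 6 targets form a feedback layer: ETV4 and ETV5 are ETS transcription factors that act downstream of ERK, DUSP6 is a phosphatase that inactivates ERK, and the Sprouty proteins restrain signalling upstream of ERK, so levels of these transcripts are commonly read as a gauge of FGF activity.

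Total RNA of 9 whole FVB embryos, 1 library per embryo, was sequenced as paired-end reads, 3 of them labelled *Dnmt3b*+/+, 3 *Dnmt3b*-/- and 3 *Dnmt3b* CI/CI. Dnmt3b is a DNA methyltransferase that sets methylation during development. The *Dnmt3b*-/- label stands for a conventional null allele in both copies, and *Dnmt3b* CI/CI for a knock-in allele, made with CRISPR in zygotes and bred from more than 1 founder line, which the labels do not tell apart, that changes the catalytic site and was designed to remove methyltransferase activity, although some residual activity of the protein cannot be dismissed. Embryos came from natural matings of heterozygotes, only live embryos were collected, no agent was given, and the alleles were in every cell of the embryo rather than in a chosen tissue. Comparing the 3 genotypes asks what the loss of Dnmt3b, and of its catalytic function, does to gene expression.

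Levels are given in FPKM, read counts scaled by gene length and library size, and in every series of values below the embryos stand in the order of their numbers, 1 to 3. The library totals implied by the table were 38451729 to 49808777 reads. Differences between genotypes are log2 fold changes of FPKM + 0.1, fitted with limma over 19398 genes that reached 0.1 FPKM in 3 or more embryos, and a gene passed the test at a Benjamini-Hochberg adjusted p under 0.05. The value of *Dnmt3b* itself was not lower under the null label, with 2.45, 3.12 and 3.33 FPKM there, 2.25, 1.62 and 2.04 FPKM in *Dnmt3b*+/+ and 2.06, 1.98 and 2.32 FPKM in *Dnmt3b* CI/CI. It was higher than in *Dnmt3b*+/+ (log2 fold change 0.57, adjusted p = 0.0248 in limma), a call kept in 13 of 18 alternative analyses. This value sums reads over the whole gene and does not show whether a part of it is deleted, so it neither checks the label nor replaces it, and the group is called by its label throughout, including wherever a direction is drawn from it.

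The libraries also differed in the levels of genes of single tissues. *Alb*, a liver gene, was at 85.7, 0.103 and 43.7 FPKM in *Dnmt3b*+/+, 9.92, 19.2 and 9.67 FPKM under the *Dnmt3b*-/- label and 59.9, 42.1 and 56 FPKM in *Dnmt3b* CI/CI. It was thus nearly absent from *Dnmt3b*+/+ embryo 2, and the 3 embryos of the *Dnmt3b*-/- label lay below the other 5. *Afp*, also of the liver, was at 23.8, 54.3 and 27.6 FPKM under that label and at 52.1 to 75.5 FPKM in *Dnmt3b* CI/CI, and the groups overlapped. The part of liver transcripts in the results was not tested. *Myl7*, a heart gene, was at 0.645 FPKM in *Dnmt3b*+/+ embryo 1 and 0.705 FPKM in *Dnmt3b* CI/CI embryo 3 and at 10.9 FPKM or more in the other 7. *En2*, a gene of the midbrain and hindbrain boundary, ranged from 0.0316 to 7.22 FPKM within *Dnmt3b*+/+ alone. All 6 trophoblast and both decidua genes examined were below 0.1 FPKM in every embryo. In whole embryos, a change in the number of cells that make a transcript and a change in the amount per cell cannot be told apart.

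The promoters of 2 members are printed because *Dusp6* is the target with the most reads among the genes that moved up, and *Fgf18* the one member that moved down against both other genotypes. Both are the 250 bases before the annotated start, 5′ to 3′ on the strand of the gene, from RefSeq on GRCm38.p6. In *Dusp6*, at chr10:99262981-99263230 on the plus strand, the capitals mark CGGAAG, a form of the ETS binding site, found on the opposite strand at position -62 from the start. In *Fgf18*, at chr11:33147401-33147650 on the minus strand, the capitals mark every CG, the site that DNA methyltransferases act on.
Dusp6: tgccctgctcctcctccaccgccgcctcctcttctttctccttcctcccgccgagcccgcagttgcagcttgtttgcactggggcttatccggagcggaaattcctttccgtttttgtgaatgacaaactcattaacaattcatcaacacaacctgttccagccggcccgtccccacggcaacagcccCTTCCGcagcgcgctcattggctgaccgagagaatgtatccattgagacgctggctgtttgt
Fgf18: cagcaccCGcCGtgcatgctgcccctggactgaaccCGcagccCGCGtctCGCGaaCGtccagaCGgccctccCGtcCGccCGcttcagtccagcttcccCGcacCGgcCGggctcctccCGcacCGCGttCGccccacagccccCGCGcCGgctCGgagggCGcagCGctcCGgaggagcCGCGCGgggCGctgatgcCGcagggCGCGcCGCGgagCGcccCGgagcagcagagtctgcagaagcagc

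Of the 10 members, 6 had an entry among the 32851 promoters of the table, *Dusp6*, *Fgf18*, *Fgf4*, *Spry1*, *Spry2* and *Etv5*, the last with 2 starts. The ETS site form CGGAAG, searched on both strands, was held by the *Dusp6* window, by none of the other windows of these genes and by 13.6% of all promoter windows of that length. Shorter and other forms of the ETS site were not searched. The *Fgf18* window held 37 CG sites, at percentile 98.1 of all promoters, whose median was 6. The others were also rich in CG, with 27 and 18 at the 2 *Etv5* starts, 23 each at *Spry1* and *Spry2*, 21 at *Fgf4* and 16 at *Dusp6*. These are counts of letters only, and methylation at these sites was not analysed here.

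*Fgf8* and *Fgf18* moved in opposite directions in the *Dnmt3b*-/- labelled embryos, while *Fgf17* and *Fgf4* gave no call. *Fgf8* (chr19:45736798-45742915, ENSMUSG00000025219), the ligand on which limb, tail and midbrain patterning depend, rose to a mean 3.98 times that of *Dnmt3b*+/+, and *Fgf18* (chr11:33117430-33147400, ENSMUSG00000057967), a ligand of skeletal and lung development, fell to 0.476 of it. Neither changed detectably in *Dnmt3b* CI/CI. The same 2 ligands passed the test, in the same directions, when the *Dnmt3b*-/- labelled embryos were set against *Dnmt3b* CI/CI.

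The level of *Fgf8* was 0.83, 0.372 and 0.642 FPKM in *Dnmt3b*+/+, 1.06, 3.43 and 2.85 FPKM in the *Dnmt3b*-/- labelled embryos, and 0.462, 0.479 and 0.462 FPKM in *Dnmt3b* CI/CI. All 3 *Dnmt3b*-/- labelled embryos lay above the other 6, but embryo 1 lay much nearer to them than embryos 2 and 3 did, and the 3 *Dnmt3b* CI/CI values all fell inside the range of *Dnmt3b*+/+. The group means were 0.614 ± 0.23 FPKM, 2.45 ± 1.24 FPKM and 0.468 ± 0.0098 FPKM (SD, n = 3 each). These levels rest on few reads, 25 to 50 in a *Dnmt3b*+/+ library, 57 to 197 in a library labelled *Dnmt3b*-/- and 24 to 28 in a *Dnmt3b* CI/CI library. Against *Dnmt3b*+/+ the log2 fold change was 1.74 ± 0.40 (SE; 95% interval 0.82 to 2.65; adjusted p = 0.0163 in limma), and against *Dnmt3b* CI/CI it was 2.01 ± 0.40 (adjusted p = 0.00839). The first call was lost without embryo 2 of the group (1.43, adjusted p = 0.0592), without embryo 3 (1.56, 0.0589) and in a fit of only the 2 genotypes compared (1.74, 0.0522), while the second held under all 18 alternatives tried. Without *Dnmt3b*+/+ embryo 2, the library that lacked liver transcripts, the first value was 1.47 (adjusted p = 0.0484), and without embryo 1, which was low in heart transcripts, 1.95 (0.0213).

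*Fgf18* stood at 3.28, 4.01 and 4.6 FPKM in *Dnmt3b*+/+, at 2.37, 2 and 1.29 FPKM in the *Dnmt3b*-/- labelled embryos and at 4.43, 4.52 and 4.56 FPKM in *Dnmt3b* CI/CI. The *Dnmt3b*-/- labelled embryos were below all others, and the *Dnmt3b* CI/CI embryos lay in the upper part of the *Dnmt3b*+/+ range with very little spread among themselves. Means were 3.96 ± 0.658, 1.89 ± 0.548 and 4.5 ± 0.0656 FPKM (SD, n = 3 each). The log2 value fell by 1.06 ± 0.20 against *Dnmt3b*+/+ (SE; adjusted p = 0.00802 in limma) and by 1.25 ± 0.20 against *Dnmt3b* CI/CI (adjusted p = 0.0036), and both calls held under all 18 alternatives.

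*Fgf17* (chr14:70636203-70642268, ENSMUSG00000022101), a ligand of the midbrain and cerebellar region, varied widely inside every genotype. It was at 1.14, 1.55 and 0.741 FPKM in *Dnmt3b*+/+, 0.609, 2.52 and 2.16 FPKM in the *Dnmt3b*-/- labelled embryos and 0.647, 0.794 and 1.56 FPKM in *Dnmt3b* CI/CI. Embryo 1 of the group labelled *Dnmt3b*-/- had the lowest value of all 9 and its 2 companions the highest, so the groups overlapped. The log2 fold change against *Dnmt3b*+/+ was 0.43 with a 95% interval of -0.74 to 1.60 (adjusted p = 0.57 in limma), too wide to tell a rise from a fall. Against *Dnmt3b* CI/CI it was 0.64 (adjusted p = 0.375), and 1.24 (0.0328) without that embryo.

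*Fgf4* (chr7:144847367-144865243, ENSMUSG00000050917), the partner of *Fgf8* in the limb ridge, was close to the limit of detection and did not pass the filter for the test. The 3 libraries of a genotype held 17 reads of it in *Dnmt3b*+/+, 28 in the group labelled *Dnmt3b*-/- and 40 in *Dnmt3b* CI/CI, with exact 95% Poisson intervals of 9.9 to 27.2, 18.6 to 40.5 and 28.6 to 54.5 reads that cover counting error only. Its levels were 0.0491, 0.0314 and 0.0399 FPKM, then 0.0942, 0.0442 and 0.0772 FPKM, then 0.0906, 0.0795 and 0.13 FPKM in the same order of genotypes. Here the *Dnmt3b* CI/CI embryos did not overlap *Dnmt3b*+/+, which gives 0.1 in an exact two-sided permutation test, the smallest p that 3 embryos against 3 can give. Fitted without the filter, that log2 fold change was 0.51 (95% interval 0.21 to 0.81; unadjusted p = 0.00464, adjusted p = 0.795 in limma). It did not pass after adjustment, so the difference was not established at this depth.

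**Figure D1:**
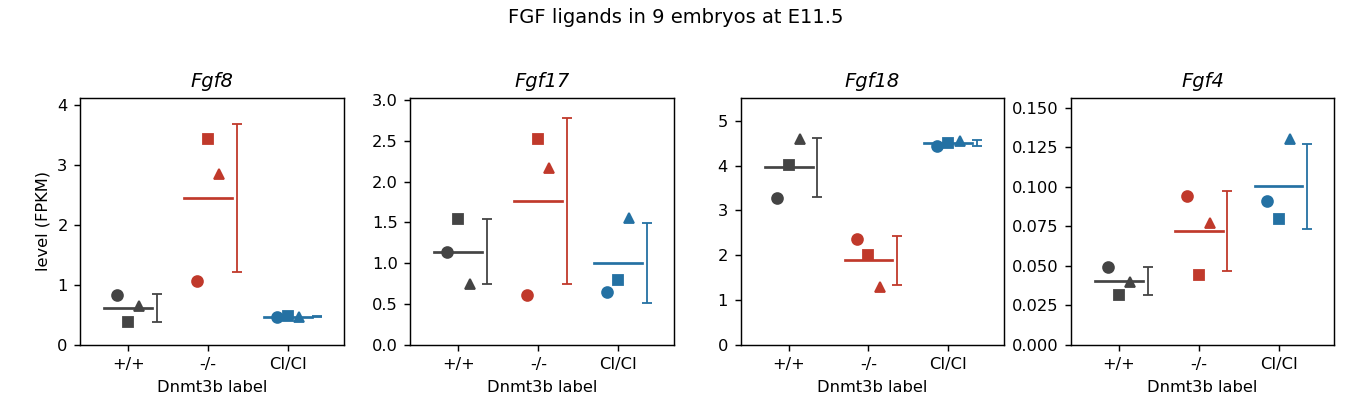
Level in FPKM (vertical axes, from 0) of the 4 ligands in each of 9 embryos, by the *Dnmt3b* label; circles, squares and triangles are embryos 1, 2 and 3, horizontal bars the means and error bars the SD. *Fgf8* is higher and *Fgf18* lower in the 3 *Dnmt3b*-/- labelled embryos than in the other 6, and *Fgf17* overlaps.

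The summed level of *Fgf8*, *Fgf17* and *Fgf18* was 5.72 ± 0.408 FPKM in *Dnmt3b*+/+, 6.1 ± 1.97 FPKM in the *Dnmt3b*-/- labelled embryos and 5.97 ± 0.543 FPKM in *Dnmt3b* CI/CI (SD, n = 3 each), and the groups overlapped. The make-up of that sum differed. *Fgf8* was 15.8, 6.3 and 10.7% of it in *Dnmt3b*+/+, 26.2, 43.1 and 45.2% in the *Dnmt3b*-/- labelled embryos and 8.3, 8.3 and 7.0% in *Dnmt3b* CI/CI, and *Fgf18* was 62.5, 67.6 and 76.9%, then 58.6, 25.2 and 20.4%, then 80.0, 78.0 and 69.3%. *Fgf18* was the most abundant of the 3 in every *Dnmt3b*+/+ and *Dnmt3b* CI/CI embryo and in embryo 1 of the group labelled *Dnmt3b*-/-, whereas *Fgf8* was in its embryos 2 and 3. Such shares are taken within a library and do not depend on the scaling between libraries. They restate the values of the 3 ligands and are given as a description.

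Among the 6 feedback targets, *Etv4* and *Dusp6* rose in the *Dnmt3b*-/- labelled embryos and the Sprouty genes did not. *Etv4* (chr11:101769742-101785371, ENSMUSG00000017724) reached 1.98 times and *Dusp6* (chr10:99263231-99267489, ENSMUSG00000019960) 1.72 times the *Dnmt3b*+/+ mean. *Etv5*, the close relative of *Etv4*, and *Spry1*, *Spry2* and *Spry4* did not pass the test against *Dnmt3b*+/+. Against *Dnmt3b* CI/CI, *Spry4* was lower.

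*Dusp6* was at 8.17, 6.94 and 8.56 FPKM in *Dnmt3b*+/+, 12.1, 14.2 and 14.4 FPKM in the *Dnmt3b*-/- labelled embryos and 8.04, 7.94 and 8.74 FPKM in *Dnmt3b* CI/CI. Every embryo labelled *Dnmt3b*-/- exceeded all others, including embryo 1, whose *Fgf8* lay nearest to the other genotypes. The log2 fold change was 0.78 ± 0.10 against *Dnmt3b*+/+ (SE; adjusted p = 0.00168 in limma) and 0.71 ± 0.10 against *Dnmt3b* CI/CI (adjusted p = 0.00205), and *Dusp6* had 1051 reads or more in every library.

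*Etv4* was at 2.54, 2.39 and 2.95 FPKM in *Dnmt3b*+/+, 4.36, 5.72 and 5.52 FPKM in the *Dnmt3b*-/- labelled embryos and 2.76, 3.11 and 2.92 FPKM in *Dnmt3b* CI/CI. The high group again stood clear of the other 6 embryos. The log2 fold change was 0.95 ± 0.12 (SE; adjusted p = 0.00164 in limma) and, against *Dnmt3b* CI/CI, 0.80 ± 0.12 (adjusted p = 0.00265). The calls of both genes held under all 18 alternatives in both comparisons, the libraries that differed in liver or heart transcripts left out in turn included.

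*Etv5* (chr16:22381309-22439719, ENSMUSG00000013089) overlapped between genotypes, at 6.05, 5.4 and 7.59 FPKM, then 6.47, 8.58 and 8.91 FPKM, then 7.1, 7.29 and 6.8 FPKM. Its log2 fold change against *Dnmt3b*+/+ was 0.33, with a 95% interval of -0.01 to 0.66 (adjusted p = 0.13 in limma), and without embryo 1 of the group labelled *Dnmt3b*-/- it was 0.47 (0.0227). The ratio of *Etv4* to *Etv5* within each library was 0.42, 0.443 and 0.389 in *Dnmt3b*+/+, 0.675, 0.667 and 0.62 in the *Dnmt3b*-/- labelled embryos and 0.389, 0.427 and 0.429 in *Dnmt3b* CI/CI, so the relatives did not move in proportion.

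The Sprouty transcripts, which encode inhibitors induced by the same signal, lay level or lower. *Spry4* was at 2.56, 2.33 and 2.72 FPKM in *Dnmt3b*+/+, 1.68, 2.28 and 2.03 FPKM in the *Dnmt3b*-/- labelled embryos and 2.93, 2.69 and 3.17 FPKM in *Dnmt3b* CI/CI. The *Dnmt3b*-/- labelled embryos were the lowest 3 of the 9. The log2 value was -0.34 against *Dnmt3b*+/+ (95% interval -0.61 to -0.07; adjusted p = 0.0671 in limma) and fell by 0.54 ± 0.12 against *Dnmt3b* CI/CI (SE; adjusted p = 0.0124). The latter call was lost under quantile normalization (-0.38, adjusted p = 0.0576) and without *Dnmt3b* CI/CI embryo 3 (-0.48, 0.0501), the library low in heart transcripts.

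*Spry1* (chr3:37639947-37644598, ENSMUSG00000037211) and *Spry2* (chr14:105891947-105896819, ENSMUSG00000022114) overlapped between all genotypes. *Spry1* ranged from 6.45 to 8.01 FPKM in *Dnmt3b*+/+, 5.8 to 7.15 FPKM in the *Dnmt3b*-/- labelled embryos and 6.76 to 7.79 FPKM in *Dnmt3b* CI/CI, with a log2 fold change of -0.18 against *Dnmt3b*+/+ (adjusted p = 0.233 in limma). Its exons overlap those of *Gm42922* on the other strand over 710 bases, and reads of the 2 cannot be told apart where the strand was not counted. *Spry2* ranged from 7.81 to 9.2, 6.13 to 8.14 and 8.07 to 10.8 FPKM in the same order, with -0.23 against *Dnmt3b*+/+ (adjusted p = 0.227) and -0.37 against *Dnmt3b* CI/CI (0.0699). The 3 Sprouty genes summed to 18.1 ± 1.59 FPKM in *Dnmt3b*+/+, 15.5 ± 0.153 FPKM in the *Dnmt3b*-/- labelled embryos and 19.4 ± 1.44 FPKM in *Dnmt3b* CI/CI (SD, n = 3 each).

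**Figure D2:**
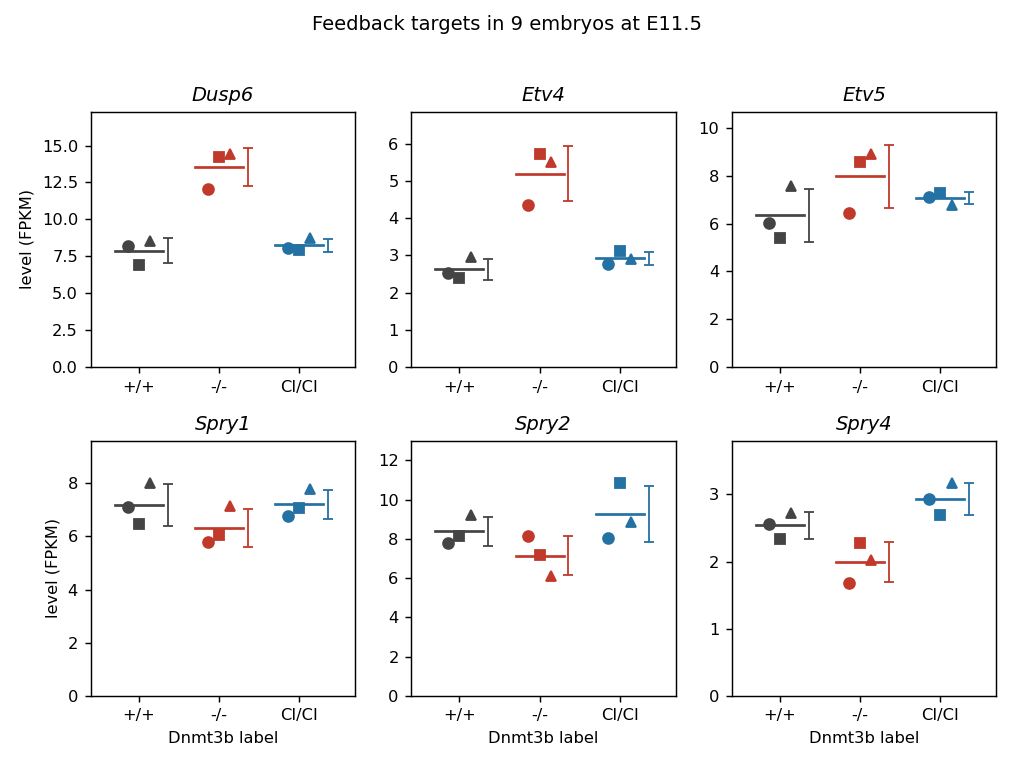
Level in FPKM (vertical axes, from 0) of the 6 feedback targets in each of 9 embryos, by the *Dnmt3b* label; symbols are embryos 1, 2 and 3 as circle, square and triangle, horizontal bars the means and error bars the SD. *Dusp6* and *Etv4* are higher in the 3 *Dnmt3b*-/- labelled embryos than in the other 6, and the Sprouty genes are level or lower.

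The ratio of *Dusp6* to *Spry4*, a pair chosen with their differences known, restates those differences within each library and adds no independent evidence. *Dusp6* was 3.19, 2.97 and 3.14 times *Spry4* in *Dnmt3b*+/+, 7.17, 6.23 and 7.11 times in the *Dnmt3b*-/- labelled embryos and 2.74, 2.95 and 2.76 times in *Dnmt3b* CI/CI. This ratio, 6.84 ± 0.526 in the *Dnmt3b*-/- labelled embryos against 3.1 ± 0.115 in *Dnmt3b*+/+ (SD, n = 3 each), did not overlap between them. The *Dnmt3b* CI/CI embryos, at 2.82 ± 0.116, lay below all of *Dnmt3b*+/+, by far less.

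**Figure D3:**
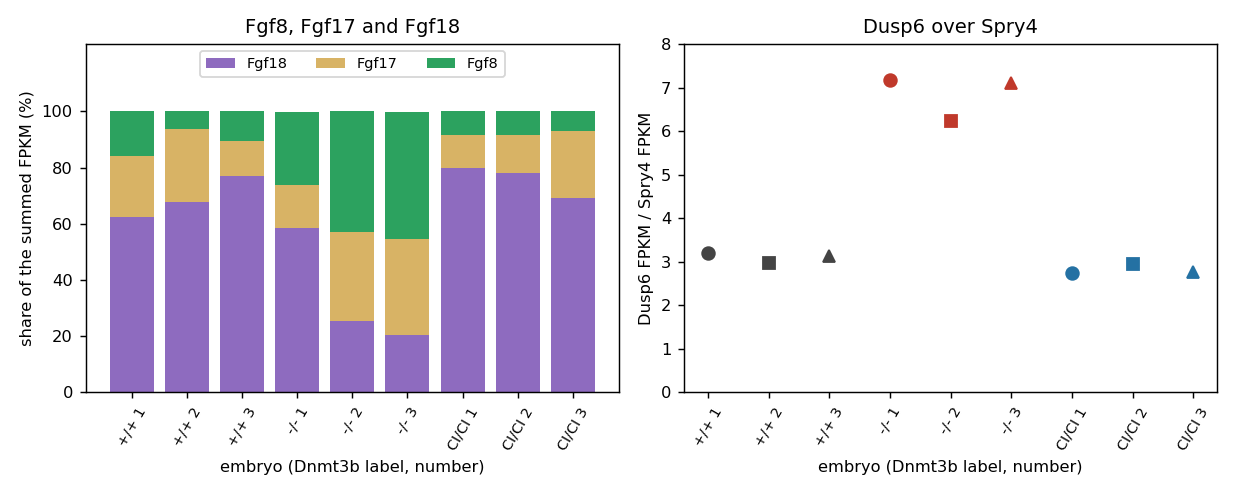
Left, share (%) of *Fgf8*, *Fgf17* and *Fgf18* in their summed FPKM in each embryo. Right, *Dusp6* FPKM divided by *Spry4* FPKM in each embryo (no unit), 6.23 to 7.17 in the *Dnmt3b*-/- labelled embryos and 2.74 to 3.19 in the other 6; symbols are embryos 1, 2 and 3 as circle, square and triangle.

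Counted over the 9 members that could be tested, 3 were higher and 1 lower in the *Dnmt3b*-/- labelled embryos than in *Dnmt3b*+/+, *Fgf8*, *Etv4* and *Dusp6* against *Fgf18*. Over all genes tested, 9.41% were higher and 16.4% lower. With a fold of at least 2 as well, *Fgf8* and *Fgf18* were left, where 1.07% of all genes were higher and 3.38% lower. The median log2 fold change of the members was 0.33 beside -0.07 over all genes. The ligands gave 1 higher and 1 lower of 3 tested, and the targets 2 higher and 0 lower of 6. Under quantile normalization, which puts every library on one distribution, the calls of all genes shifted from 1826 higher and 3175 lower to 2236 higher and 2044 lower, while the members still gave 3 and 1.

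Against *Dnmt3b* CI/CI, 3 of the 9 were higher and 2 lower in the *Dnmt3b*-/- labelled embryos, where 9.7% of all genes were higher and 18.2% lower. With a fold of at least 2, *Fgf8* and *Fgf18* were again left, beside 1.1% and 4.32% of all genes. Quantile normalization turned 1882 higher and 3525 lower genes into 2840 and 2281, and moved the median log2 value of all genes from -0.08 to 0.03. Between *Dnmt3b* CI/CI and *Dnmt3b*+/+ 0 of the 9 passed in limma in either direction, and 0 had an unadjusted p under 0.05, where 0.129% of all genes were higher and 0.0155% lower. *Fgf4*, outside the 9, had an unadjusted p of 0.00464 there in the limma fit without the filter. The 95% intervals between *Dnmt3b* CI/CI and *Dnmt3b*+/+ were -1.19 to 0.64 for *Fgf8*, -0.26 to 0.65 for *Fgf18*, -0.11 to 0.43 for *Etv4*, -0.15 to 0.29 for *Dusp6* and -0.07 to 0.47 for *Spry4*, so the data bound a change of *Dusp6* far more tightly than one of *Fgf8*. The 3 comparisons share embryos and are not independent of one another.

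**Figure D4:**
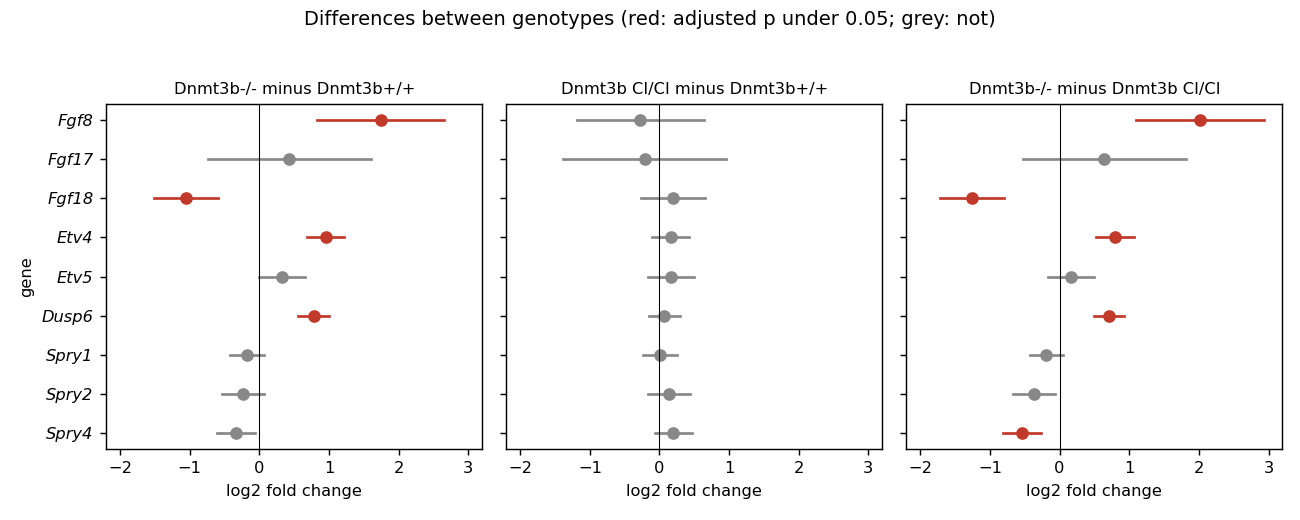
Log2 fold change of FPKM + 0.1 (horizontal axes) of the 9 tested members in the 3 comparisons, with 95% intervals from limma; red marks an adjusted p under 0.05. *Fgf8*, *Etv4* and *Dusp6* lie to the right and *Fgf18* to the left in both comparisons of the *Dnmt3b*-/- labelled embryos, and the middle panel has no call.

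By level, the *Dnmt3b*+/+ embryos ordered the members as *Spry2* (8.38 ± 0.726 FPKM), *Dusp6* (7.89 ± 0.846), *Spry1* (7.19 ± 0.782), *Etv5* (6.35 ± 1.12), *Fgf18* (3.96 ± 0.658), *Etv4* (2.63 ± 0.288), *Spry4* (2.54 ± 0.196), *Fgf17* (1.14 ± 0.403), *Fgf8* (0.614 ± 0.23) and *Fgf4* (0.0401 ± 0.00883; SD, n = 3 each). The first 4 neighbours overlapped in their ranges, as did *Etv4* and *Spry4*, and *Fgf17* and *Fgf8*. In the *Dnmt3b*-/- labelled embryos the mean of *Dusp6*, 13.6 ± 1.3 FPKM, was the highest of all, and *Fgf8*, at 2.45 FPKM, stood above *Fgf18*, at 1.89 FPKM, with ranges that overlapped.

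Other genes of the pathway were read from the same fit. Of 12 further inducible antagonists and targets, 4 rose and 0 fell in the *Dnmt3b*-/- labelled embryos against *Dnmt3b*+/+, where 9.41% of all genes were higher, with a list median of 0.05. They were *Dusp9* (log2 fold change 1.36, adjusted p = 0.0137 in limma) and *Dusp5* (1.09, 0.00126), phosphatases of ERK related to *Dusp6*, *Egr1* (0.82, 0.00288), an immediate early gene of the ERK cascade, and *Il17rd* (0.37, 0.0455), a membrane antagonist of FGF receptors. *Dusp5* went from 0.589, 0.585 and 0.619 FPKM in *Dnmt3b*+/+ to 1.3, 1.58 and 1.31 FPKM, and *Egr1* from 1.66, 1.78 and 2.13 FPKM to 3.11, 3.36 and 3.51 FPKM, and both held under all 18 alternatives. The call of *Il17rd* held in only 7 of 18, and that of *Dusp9* was lost without embryo 2 of the group (1.18, 0.054). The count became 2 higher without that embryo, and 2 were lower instead of 0 without embryo 1 of the group. The *Spred* genes, cousins of the Sproutys, did not pass. In *Dnmt3b* CI/CI, *Dusp5* was at 0.937, 0.71 and 0.726 FPKM, above every *Dnmt3b*+/+ embryo, and *Egr1* at 2.09, 2.35 and 2.66 FPKM. Against *Dnmt3b*+/+ these were log2 fold changes of 0.34 and 0.33 (unadjusted p = 0.0263 and 0.0205 in limma). Neither passed there (adjusted p = 0.887 and 0.876 in limma).

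Of 10 tested receptors and co-factors 0 rose and 2 fell, where 16.4% of all genes were lower, and the number that fell ranged from 1 to 3 over the alternatives. It was 1 without embryo 2 or 3 of the group labelled *Dnmt3b*-/-, without *Dnmt3b*+/+ embryo 1 or 3 and without any one of the *Dnmt3b* CI/CI embryos. The 2 were *Fgfr4* (-1.42, adjusted p = 0.00761 in limma), a receptor tyrosine kinase, and *Frs2* (-0.21, 0.0438), the adaptor that links receptors to ERK. The call of *Fgfr4* held under all 18 alternatives and that of *Frs2* under 4. *Fgfr4* was at 3.45, 4.15 and 4.86 FPKM in *Dnmt3b*+/+, 2.34, 1.42 and 0.954 FPKM in the *Dnmt3b*-/- labelled embryos and 5.05, 5.2 and 5.3 FPKM in *Dnmt3b* CI/CI, the order of genotypes seen for *Fgf18*. The main embryonic receptors *Fgfr1*, *Fgfr2* and *Fgfr3* had log2 values of -0.17, -0.20 and -0.11 and did not pass.

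Of 11 other secreted ligands tested 0 rose and 2 fell, where 16.4% of all genes were lower. The count became 5 lower without embryo 1 of the group labelled *Dnmt3b*-/-, and 1 was higher without its embryo 3. They were *Fgf7* (-0.96, adjusted p = 0.00465 in limma), a mesenchymal growth factor for epithelia, and *Fgf2* (-0.69, 0.00604), and both calls held under every alternative in which the gene passed the filter. *Fgf10* (0.07, 0.839) and *Fgf9* (-0.36, 0.0545), which signal between mesenchyme and epithelium, and *Fgf15* (0.17, 0.576) did not pass. Of the 4 homologous factors that are not secreted and act inside neurons, *Fgf11* (-0.95, 0.048), *Fgf12* (-0.94, 0.0413) and *Fgf13* (-0.46, 0.0429) fell, calls kept in only 5 of 18, 6 of 17 and 6 of 18 alternatives. The number of these factors that fell was 0 when embryo 2 or 3 of any genotype or *Dnmt3b* CI/CI embryo 1 was left out. The list medians were -0.32, -0.70 and, for receptors, -0.19, beside -0.07 over all genes.

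Genes of the regions that make FGF8 did not move as one. Of 8 genes of the limb ridge 2 rose, *Sp6* (0.83, adjusted p = 0.0284 in limma) and *Msx2* (0.47, 0.0425), with calls kept in 10 of 17 and 6 of 18 alternatives. Over all genes 9.41% were higher and 16.4% lower, the ridge count ranged from 0 to 3 over the alternatives, and with so few genes nothing is read from it. Of 8 genes of the midbrain and hindbrain boundary 0 passed, with 1 at an unadjusted p under 0.05 and a list median of -0.44, and of 7 tail bud genes 0 passed, with 2 at an unadjusted p under 0.05. The share of all genes at that unadjusted cut was not counted. Over the alternatives the tail bud counts ranged from 0 to 1 higher and from 0 to 1 lower. The boundary genes summed to 15.4 to 37.6 FPKM in *Dnmt3b*+/+, 9.33 to 29.8 FPKM in the *Dnmt3b*-/- labelled embryos and 19.3 to 28.2 FPKM in *Dnmt3b* CI/CI. Embryo 1 of the group labelled *Dnmt3b*-/- had more *En2* (6.62 FPKM) than embryos 2 and 3 (2.96 and 0.683 FPKM) and less *Fgf8* and *Fgf17*. With embryo 1 left out, the number of boundary genes that were lower went from 0 to 2. Their part in the result was not tested.

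Against *Dnmt3b* CI/CI, where 9.7% of all genes were higher and 18.2% lower, 3 of the 8 limb ridge genes were higher in the *Dnmt3b*-/- labelled embryos, *Rspo2* (1.12, adjusted p = 0.00826 in limma), a Wnt amplifier, *Sp8* (1.01, 0.0246), a factor needed for *Fgf8* in the ridge, and *Msx2* (0.86, 0.00407). The calls of *Rspo2* and *Msx2* held under all 18 alternatives and that of *Sp8* under 12, being lost among others with the replicate block (adjusted p = 0.0567). In *Dnmt3b* CI/CI itself the ridge list had a median of -0.42 against *Dnmt3b*+/+, beside 0.02 over all genes. Of its 8 genes 0 passed in limma, where 0.129% of all genes were higher and 0.0155% lower. At an unadjusted p under 0.05 there were 5 of 8. The share of all genes at that cut was not counted, so nothing is read from those 5. *Rspo2* was at 1.55, 1.22 and 1.53 FPKM in *Dnmt3b* CI/CI and 2.47, 1.9 and 2.79 FPKM in *Dnmt3b*+/+. Of the 8 boundary genes 1 was lower, *Lmx1b* (-0.64, 0.0264), and of the 7 tail bud genes *Nkx1-2* (1.38, 0.0305) and *Cyp26a1* (0.81, 0.0452) were higher and *Hes7* (-0.77, 0.0461) lower, with calls kept in 13 of 18, 10 of 17, 9 of 18 and 8 of 17 alternatives. Without embryo 1 of the group labelled *Dnmt3b*-/- the ridge count became 6 higher and the boundary count 5 lower, and without its embryo 2 or 3 the boundary count was 0, as it was without *Dnmt3b* CI/CI embryo 2 or 3. The tail bud counts ranged from 0 to 2 higher and from 0 to 1 lower over the alternatives.

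In that comparison 4 of the 11 other secreted ligands were lower, where 18.2% of all genes were, *Fgf7* (-1.27, adjusted p = 0.00138 in limma), *Fgf2* (-0.73, 0.0041), *Fgf6* (-0.60, 0.0204) and *Fgf9* (-0.41, 0.0323), a count that became 1 higher and 2 lower under quantile normalization, and 3 of the 10 receptors and co-factors, *Fgfr4* (-1.74, 0.00291), *Fgfrl1* (-0.29, 0.0382) and *Frs2* (-0.23, 0.0296). Of the 4 homologous factors, *Fgf12* (-1.11, 0.0213), *Fgf13* (-0.47, 0.0355) and *Fgf11* (adjusted p = 0.0381) were lower as well. Of the 12 further antagonists and targets 3 were higher, where 9.7% of all genes were, *Dusp9* (0.93, 0.0479), *Dusp5* (0.75, 0.00469) and *Egr1* (0.48, 0.0182). *Dusp5*, *Fgf7*, *Fgf2* and *Fgfr4* kept their calls in every alternative in which they were tested, whereas the others kept theirs in 14 of 18 (*Egr1*), 12 of 17 (*Fgf6*), 11 of 18 (*Frs2*), 11 of 17 (*Fgf12*), 10 of 18 (*Fgfrl1*), 9 of 17 (*Fgf9*), 9 of 18 (*Fgf11* and *Fgf13*) and 8 of 18 (*Dusp9*). These counts rest on single libraries. Without embryo 1 of the group labelled *Dnmt3b*-/- the antagonists and targets became 5 higher and 2 lower, and without its embryo 2 or 3, or *Dnmt3b* CI/CI embryo 1 or 2, 1 was higher. The receptors that were lower ranged from 1 to 4 over the alternatives, with 1 when any of those same 4 embryos was left out. The ligands that were lower became 2 without embryo 2 of the group labelled *Dnmt3b*-/-, when 1 was higher, and 2 without *Dnmt3b* CI/CI embryo 2 or 3. The homologous factors that were lower became 0 without embryo 2 or 3 of the group labelled *Dnmt3b*-/- or any one *Dnmt3b* CI/CI embryo, and 1 without *Dnmt3b*+/+ embryo 3.

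**Figure D5:**
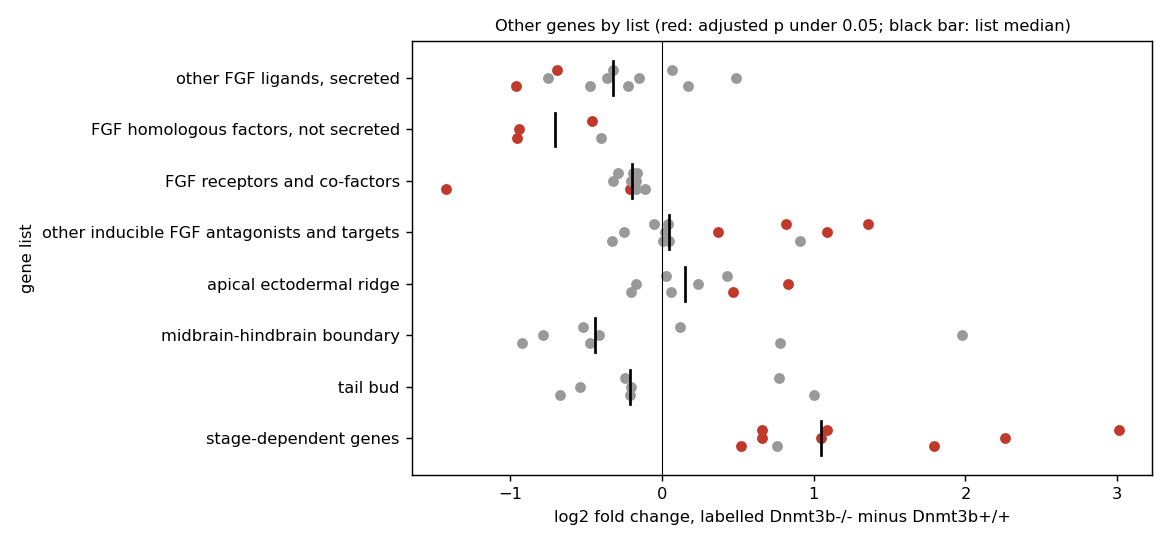
Log2 fold change between the *Dnmt3b*-/- labelled embryos and *Dnmt3b*+/+ (horizontal axis) of the tested genes in 8 lists; red marks an adjusted p under 0.05 in limma and the black bar the list median. Red points of the inducible antagonists and of the stage-dependent genes lie to the right, those of ligands and receptors to the left.

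Genes whose level falls as the embryo ages moved with the same groups. Of 9 such genes 8 were higher and 0 lower in the *Dnmt3b*-/- labelled embryos than in *Dnmt3b*+/+, and 8 against *Dnmt3b* CI/CI, where 9.41% and 9.7% of all genes were higher, with a list median of 1.05 in the first. *Lin28a*, an RNA-binding protein that falls off after early development, was at 0.331, 0.106 and 0.128 FPKM in *Dnmt3b*+/+, 0.791, 1.67 and 1.31 FPKM in the *Dnmt3b*-/- labelled embryos and 0.195, 0.231 and 0.176 FPKM in *Dnmt3b* CI/CI. The embryonic globin *Hbb-bh1* was at 26.9, 46.1 and 23.3, then 113, 501 and 265, then 25.1, 26.8 and 20.2 FPKM. Within the group labelled *Dnmt3b*-/-, embryo 1 was the lowest and embryo 2 the highest for both, as for *Fgf8*. The part of stage in the result was not tested. Of 12 general tissue genes 0 passed against *Dnmt3b*+/+ in limma, also 0 at an unadjusted p under 0.05, but *Alb* had a standard error of 1.90 on the log2 scale there, with 1 library near 0. Against *Dnmt3b* CI/CI 4 of the 12 had an unadjusted p under 0.05, a cut at which the share of all genes was not counted. Of them 1 passed, *Sox2*, a neural gene, which was higher (0.95, adjusted p = 0.00823 in limma), where 9.7% of all genes were. Its means were 27.8 FPKM in *Dnmt3b*+/+, 36 FPKM in the *Dnmt3b*-/- labelled embryos and 18.7 FPKM in *Dnmt3b* CI/CI. Against *Dnmt3b*+/+ neither of the other groups passed (0.36 and -0.59, adjusted p = 0.188 and 0.796 in limma).

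The genes most like *Fgf8* were taken by the root-mean-square difference of log2(FPKM + 0.1) over the 9 embryos, each gene centred on its mean. Among the closest were *AC154262.1* (0.30), *Fndc3c1* (0.32), *Lin28a* (0.33) and *Aqp8* (0.34). *Fndc3c1* was at 2.78, 2.1 and 2.95 FPKM in *Dnmt3b*+/+, then 4.07, 8.4 and 8.62 FPKM, then 2.54, 2.6 and 2.22 FPKM. Those most like *Dusp6* were *Nmral1*, *H2afz*, *Ahcy* and *Ranbp1* (0.07 each) and *Plk1* (0.08). *H2afz*, a histone variant, went from a mean of 135 FPKM in *Dnmt3b*+/+ to 227 FPKM in the *Dnmt3b*-/- labelled embryos.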

How the data were processed

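RNA-seq of 9 embryos was analysed. The authors trimmed paired-end reads of 150 bases, aligned them with STAR to mm10, quantified those of mapping quality 50 or more with SeqMonk, and deposited 1 table of FPKM values on the linear scale; annotation release and strandedness are not given in the sources used here. Bisulfite sequencing was not analysed here. FPKM carries no count model, so the authors' count test (DESeq2, per the labels) was replaced by limma 3.58.1 in R 4.3.3 on log2(FPKM + 0.1), with all 9 embryos, a variance trend and Benjamini-Hochberg adjustment over 19398 genes. A fold change on this scale understates changes of low genes. The fit was tested on simulated data.

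The table holds no zeros: a gene without reads carries a value worth 0.9 reads. Library totals were taken from that floor with exon lengths of GENCODE M21 (GRCm38), which gave whole reads for 7 members; *Fgf17*, *Spry2* and *Spry4* used the nearest length that did. Reads were used for depth only.

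Groups came from the labels. Members and lists were chosen with earlier results of these data known. Text names all members, *Dnmt3b*, up to 4 genes with the largest change among those that passed in each list, and the 5 genes most like *Fgf8* and *Dusp6*, of which 1 is not reported here; values of other list genes named beside them were added after they were seen. Single values were compared by exact permutation. Alternatives were pseudocounts of 0.01 and 1 FPKM, no filter or 1 FPKM, median-of-ratios scaling, quantile normalization, a fit of only the groups compared, no variance trend, a replicate block and leaving out each embryo. Python 3.11.15, numpy 2.4.6, pandas 2.3.3, scipy 1.17.1 and matplotlib 3.10.9 were used.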

Additional observations from a re-analysis of the deposited data

How the results depend on the processing

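The 27 log2 fold changes of the members under 18 alternatives, each changing 1 choice, and 30 group means under median-of-ratios scaling alone gave 501 values on the same side of the threshold in the same direction (means within 1 SD), 5 that lost a call, 3 that gained one and 7 that changed sign. The number of members lower in the *Dnmt3b*-/- labelled embryos than in *Dnmt3b* CI/CI was 1 under quantile normalization and 1 to 3 when an embryo was left out, beside 2 as reported; the cause was not tested. Leaving out embryo 1 of the group labelled *Dnmt3b*-/- gained calls for *Etv5* (0.47), *Fgf17* (1.24) and *Spry2* (-0.46). Sign changes were all in uncalled values of *Dnmt3b* CI/CI against *Dnmt3b*+/+: *Spry1* at -0.01 under median-of-ratios scaling and under quantile normalization, and, with 1 embryo left out, -0.07 to 0.09 for *Spry1*, -0.02 to 0.13 for *Dusp6* and -0.55 to 0.02 for *Fgf17*.

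With a replicate block for the embryo number, the members' counts stayed at 3 higher and 1 lower against *Dnmt3b*+/+ and 3 and 2 against *Dnmt3b* CI/CI, and no member changed its call. Over all genes the block left 1075 higher and 1954 lower in the first comparison 1212 and 2383 in the second, and 17 and 1 between *Dnmt3b* CI/CI and *Dnmt3b*+/+, beside 1826 and 3175, 1882 and 3525, and 25 and 3 without it. Median-of-ratios scaling and quantile normalization gave 25 and 5 in the last. Embryos share only a number: deviations of same-numbered embryos correlated from -0.34 to 0.00 between the groups labelled *Dnmt3b*-/- and *Dnmt3b*+/+, from -0.06 to 0.21 between *Dnmt3b* CI/CI and *Dnmt3b*+/+ and from -0.28 to 0.01 between the groups labelled *Dnmt3b*-/- and *Dnmt3b* CI/CI, and 0, 2 and 0 of 6 embryos correlated best with their own number.

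Depth limits *Fgf4*, with 17 to 40 reads a genotype, and 3 embryos a group limit every test.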
